A study of Sus scrofa with 10 samples.

Results

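Genes of the motile axoneme, the microtubule core of beating cilia and sperm tails, were described in the ovaries of gilts with and without recombinant pig follicle-stimulating hormone (rpFSH). The genes were chosen by name alone. Protein-coding loci whose symbol belongs to the CFAP, RSPH, DRC, TEKT, DNAI or DNAAF families, or is DNALI1, SPAG6, SPAG8, SPAG16, SPAG17 or a SPEF gene, were taken. This gave 48 loci, 1 per gene, out of 43499 loci in the deposited table, of which 19972 were protein-coding. The 48 loci lay on 15 chromosomes, with 8 on chromosome 6, 7 on chromosome 1 and 0 on chromosome X. For 37 of them the table gave a Gene Ontology term, and for 29 a term with a word for cilium, axoneme, flagellum or dynein. Members of the same families that the table lists under other symbols were not taken.

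Ovary RNA was sequenced from 10 gilts of the same genetic background, with 5 pigs in the control group and 5 pigs in the rpFSH treatment group. All pigs had been given altrenogest, an oral progestin that synchronises the cycle, over 18 days at a daily dose of 20 mg. It was started when they were 210 days old and withheld for 2 days at the end. The rpFSH treatment group (spelled fpFSH in the sample labels) then had an injection of rpFSH (1000 IU each), while control pigs, labelled untreated, had saline according to the design text. Ovaries were taken at 234 days of age after surface follicles had been removed, so that the RNA came from what was left of the ovary, and 1 library was made for each pig. The sources differ on the libraries, with removal of rRNA and HiSeq sequencing in the study's methods, and poly(A) selection and NovaSeq sequencing in the labels. Total counts were between 64873797 and 75114003 per pig. Levels are given in FPKM, fragment counts scaled by transcript length and by library size, so that genes can be set side by side. Differences are log2 fold changes of rpFSH over control with their standard errors (SE), from counts.

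A motile axoneme has a ring of doublet microtubules around a central pair. Dynein arms on the doublets slide them past each other, and the radial spokes, the central pair and the nexin-dynein regulatory complex time and limit this sliding so that the cilium bends. Tektins and other inner proteins stiffen the doublets from within, and assembly factors build the dynein arms in the cytoplasm before they are carried into the cilium. In the female tract such cilia are best known on the multiciliated epithelium of the oviduct, where the regulator FOXJ1 switches on the axonemal genes. Many other cells carry a primary cilium, which does not beat and lacks most of these parts.

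Primers are shown for DRC7 and CFAP161, the axonemal genes that the study also measured by qRT-PCR. DRC7 belongs to the linker between neighbouring doublets, and CFAP161 to the inner proteins of the doublet wall. The letters are the study's own, written from 5′ to 3′, with no base set apart in capitals.
DRC7 forward: ctgctctcaggccatgttcc
DRC7 reverse: agggggtttaaagctgttgct
CFAP161 forward: tgcttttaggaaactggaggc
CFAP161 reverse: ggcattttgctgaaccctgc
The primers are 20 or 21 bases long with 10 to 12 bases of G or C. Positions on the build Sscrofa11.1 are those of the deposited table. The DRC7 locus (MSTRG.26744) spans chr6:19603448-19629173 on the plus strand, and the CFAP161 locus (MSTRG.30876) spans chr7:49927239-49940764 on the plus strand. Where within these loci the primers lie was not analysed here.

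A pair of control libraries stood apart from the other 8 pigs in these genes. The FPKM summed over the 48 genes was 40.5 in control 1, 107 in control 2, 40.7 in control 3, 47.5 in control 4 and 173 in control 5. In the rpFSH treatment group the sum was 39.3, 36.4, 36.8, 35.4 and 35.3 in pigs 1 to 5. The mean was 81.8 ± 58.2 (SD, n = 5) in the control group and 36.6 ± 1.62 (SD, n = 5) in the rpFSH treatment group, and the 3 controls other than 2 and 5 had a mean of 42.9 ± 3.98 (SD, n = 3). The median gene was at 2.03 FPKM in control 2 and 3.60 FPKM in control 5, against 0.214 to 0.370 FPKM in the other 8 pigs. Control replicates 2 and 5 were the 2 highest pigs in 40 of the 48 genes, where 8.97% of all 15170 tested protein-coding loci had this order. Both were more than 2 times the next pig in 28 of the 48, against 2.68% of the tested loci. Control 5 was the highest of all pigs in 41 genes, and the ratio of control 5 to control 2 had a median of 1.64 over 47 genes and was lowest at 0.856. In the remaining 8 genes the 2 highest pigs were controls 3 and 4 (3 genes), controls 4 and 5 (2 genes), control 5 and rpFSH 1 (2 genes) or controls 1 and 2 (1 gene). In these bulk samples fewer cells of a type and less RNA per cell cannot be told apart. Fold changes and counts of edgeR that rest on controls 2 and 5 are therefore given with and without them. DESeq2 and limma were fitted with all pigs only.

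**Figure D1:**
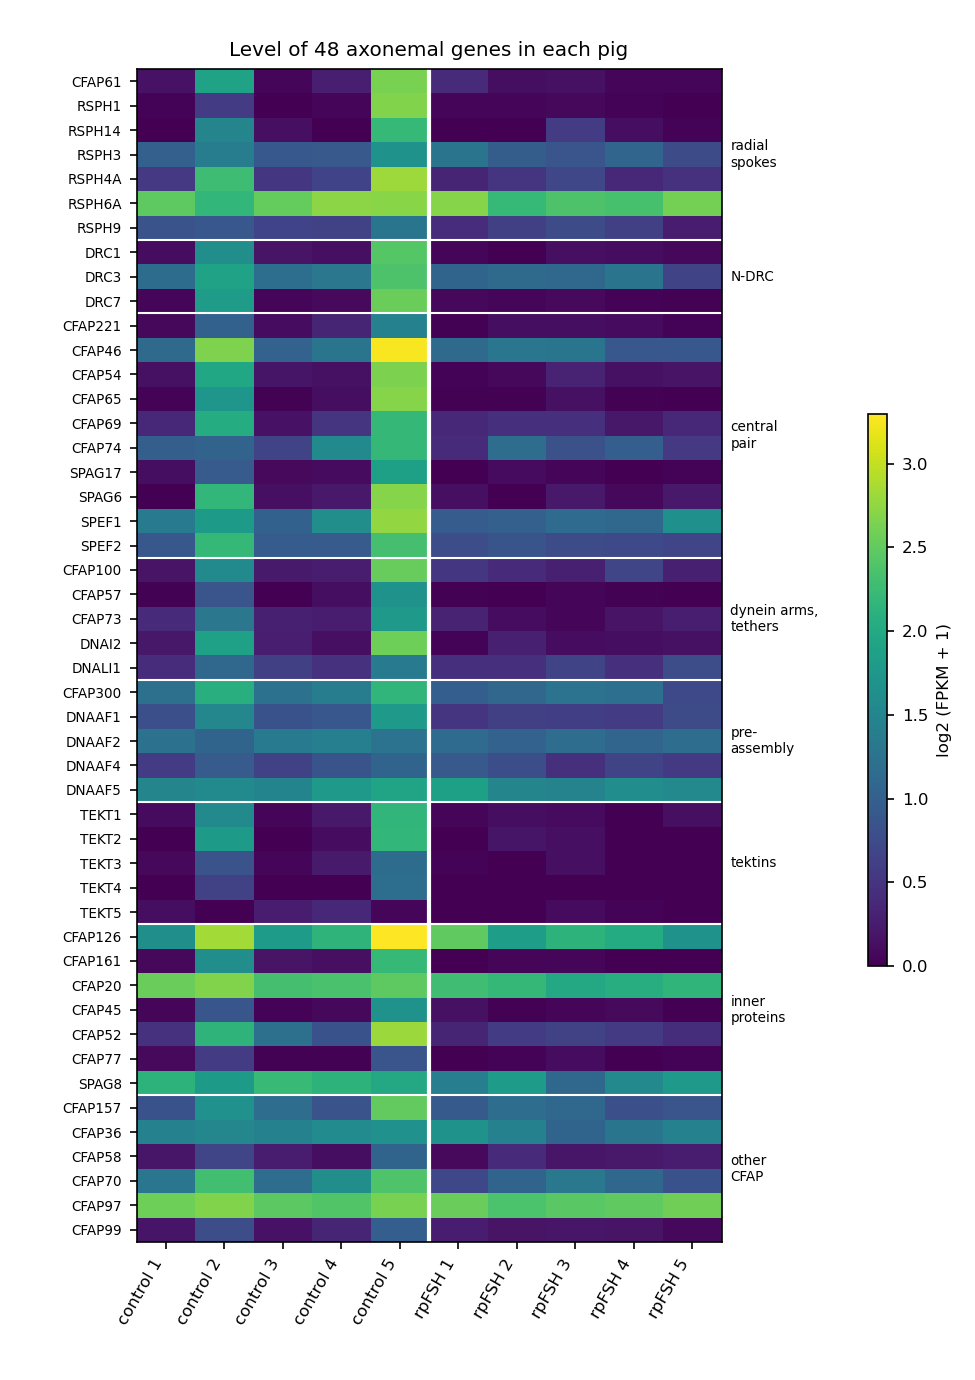
Level of the 48 axonemal genes (rows, grouped by role) in each of the 10 pigs (columns), as log2(FPKM + 1) by colour. The columns of controls 2 and 5 are brighter than the other 8 through most rows, whereas genes such as CFAP97, CFAP20 and DNAAF5 have similar colours in every pig. The RSPH6A row is a locus fused with SYMPK.

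Of the 48 genes, 47 passed the filter on low values (a mean of at least 0.1 FPKM over the 10 pigs), and TEKT5 did not. This mean includes controls 2 and 5, so genes with little level elsewhere could pass through these libraries. In 17 of the 47 the median of the other 8 pigs was under 0.1 FPKM. A gene was called lower or higher at an unadjusted P under 0.05 and a log2 fold change beyond 1 in either direction, which are the study's limits. By the quasi-likelihood test of edgeR, 27 of the 47 tested genes were called lower in the rpFSH treatment group, where 2.58% of all tested loci were called lower. Of these 27, 16 were among the 17 genes with a median under 0.1 FPKM in the other 8 pigs. None of the 47 was called higher, against 0.508% of the tested loci, and DESeq2 and limma also called none higher. The log2 fold change was below 0 in all 47 with TMM, RLE and upper-quartile scaling. The median log2 fold change of the 47 was -1.94, and of all tested loci -0.01. P was under 0.05 in 31 of the 47, against 4.76% of the tested loci. After Benjamini-Hochberg adjustment over all 15170 loci edgeR called 0 axonemal genes, with a smallest adjusted p of 0.992, and limma also called 0, with an unadjusted P under 0.05 in 10. On the limits above, limma on log2(FPKM + 1) called 7 genes lower, against 0.883% of the tested loci. For limma the P came from the log2(FPKM + 1) model, while the fold limit was set on the log2 ratio of mean FPKM. Calls on limma's own coefficient were not counted. DESeq2 called 28 lower at these limits, against 2.94%, and gave an adjusted p under 0.05 to 9 genes, against 0.567% of the tested loci. These 9 were DRC1, DRC7, CFAP221, CFAP54, CFAP65, SPAG17, DNAI2, CFAP161 and CFAP52.

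The calls rested on controls 2 and 5. In all 27 genes called lower these were the 2 highest pigs, and in 26 of the 27 both were over 2 times the next pig, CFAP70 being the other. Without them, 46 axonemal genes were tested by edgeR and 0 were called lower, against 0.772% of the tested loci. CFAP100 alone was called higher, against 2.02% of the tested loci, and the median log2 fold change was -0.19 (all tested loci 0.05). The direction was then split, with 28 genes below 0 and 18 above. P was under 0.05 in 2 genes, CFAP100 and SPAG8, against 6.83% of the tested loci. Of the 27 genes called lower with all pigs, 18 stayed below 0 and 8 were above 0, and TEKT4 could not be fitted. Those above 0 were CFAP61, RSPH1, CFAP46, CFAP54, CFAP69, SPAG6, TEKT2 and CFAP45. Leaving out 1 pig at a time gave 15 to 32 genes called lower, with 15 genes without control 5 (1.50% of the tested loci) and 22 without control 2 (1.80% of the tested loci), where at most 3.27% of the tested loci were called in any of these fits. In all, 15 of the 27 genes were called in each of the 10 fits. Of the 27, 12 were not called without control 5 and 5 were not called without control 2.

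**Figure D2:**
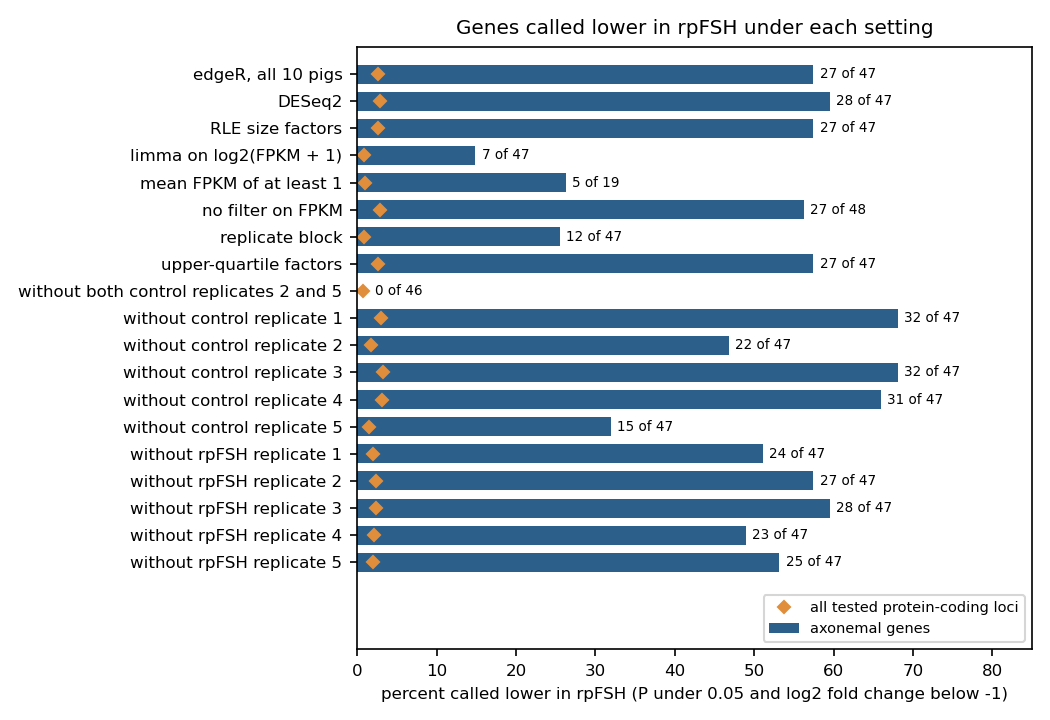
Percent of the tested axonemal genes called lower in the rpFSH treatment group (bars, with the count beside each) and of all tested protein-coding loci (diamonds) under each setting. The share falls from 27 of 47 with all pigs to 0 of 46 without controls 2 and 5, and is 7 of 47 with limma on log2(FPKM + 1). Under limma the fold limit was set on the ratio of mean FPKM, not on the limma coefficient.

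An exact permutation test over the 252 ways of dividing the 10 pigs was run for each gene on mean log2(FPKM + 1). It assumes no form of distribution but takes the pigs as exchangeable between the groups, so unequal spread can also affect its p. The two-sided p was under 0.05 in 13 of the 47 genes, against 3.72% of the tested loci, and 0.00794 was the smallest p this design can give. Among the 27 genes called lower by edgeR, 8 had an exact p under 0.05, and the exact p ranged from 0.00794 to 0.444 with a median of 0.0952. In 4 tested genes every control was above every pig of the rpFSH treatment group, namely SPEF2, DNAAF1, CFAP161 and CFAP20, where 0.547% of the tested loci showed this. The opposite order was found in 0 axonemal genes, against 0.0791% of the tested loci. Without controls 2 and 5 the other 3 controls were above all rpFSH pigs in 6 tested genes, against 3.94% of the tested loci. The exact p was then under 0.05 in 6 genes, against 5.14% of the tested loci, and the smallest possible p was 0.0179. These were SPEF2, DNAAF1, DNAAF2, CFAP161 and CFAP20, each at this smallest exact p, and SPAG8, with an exact p of 0.0357.

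Radial spokes are the T-shaped stalks that reach from the doublets toward the central pair. Of 7 spoke genes, 3 were called lower in the rpFSH treatment group, namely CFAP61 (log2 fold change -3.70), RSPH1 (-5.15) and RSPH4A (-2.42). None of the 3 was called without controls 2 and 5, and the log2 fold change turned to 0.09 in CFAP61 and 0.71 in RSPH1. The median of the 7 was then 0.09. RSPH4A (MSTRG.648, chr1:44963886-45002493, minus strand) codes for a protein of the spoke head. RSPH4A was at 0.462, 3.83, 0.433, 0.580 and 6.02 FPKM in controls 1 to 5, and at 0.264, 0.416, 0.621, 0.294 and 0.383 FPKM in rpFSH pigs 1 to 5. Controls 2 and 5 stood above all other pigs, and the other 3 controls lay within the range of the rpFSH treatment group. The means were 2.26 ± 2.55 and 0.396 ± 0.141 FPKM (SD, n = 5 each). In RSPH4A the log2 fold change was -2.42 ± 0.78 (SE, edgeR P = 0.0106, exact permutation p = 0.0635), and without controls 2 and 5 it was -0.22 ± 0.35 (SE, edgeR P = 0.536).

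RSPH1, another head protein, differed between the high libraries as no other axonemal gene did, with 0.484 FPKM in control 2 and 5.38 FPKM in control 5. The locus named RSPH6A and SYMPK (MSTRG.27492, chr6:52119912-52180293, minus strand) joins a spoke gene with a gene of mRNA 3' end processing, so its value for RSPH6A is uncertain. It was at 4.57, 3.55, 4.74, 5.58 and 5.56 FPKM in controls 1 to 5 and at 5.51, 3.61, 4.17, 4.07 and 5.11 FPKM in rpFSH pigs 1 to 5. The groups overlapped over nearly their whole range, and control 2 was the lowest of the 10 pigs. The log2 fold change was -0.03 ± 0.16 (SE, edgeR P = 0.876, exact permutation p = 0.563).

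The nexin-dynein regulatory complex bridges neighbouring doublets and limits how far they slide. Of its 3 genes here, DRC1 (log2 fold change -4.54, and -0.84 without controls 2 and 5) and DRC7 were called lower. DRC7 was at 0.0417, 2.49, 0.0360, 0.0551 and 4.88 FPKM in controls 1 to 5, and at 0.0525, 0.0295, 0.0595, 0.0188 and 0.0157 FPKM in rpFSH pigs 1 to 5. Outside controls 2 and 5 the gene was below 0.1 FPKM in both groups, and the other 3 controls lay among the rpFSH pigs. The means were 1.50 ± 2.17 and 0.0352 ± 0.0198 FPKM (SD, n = 5 each). Its log2 fold change was -5.22 ± 1.48 (SE, edgeR P = 0.00507, exact permutation p = 0.103), and without controls 2 and 5 it was -0.18 ± 0.62 (SE, edgeR P = 0.777).

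DRC3 (MSTRG.7247, chr12:60633275-60651849, minus strand), of the same complex, was present in every pig. Its FPKM was 1.25, 2.73, 1.28, 1.48 and 4.20 in controls 1 to 5 and 1.09, 1.20, 1.17, 1.40 and 0.597 in rpFSH pigs 1 to 5. Again controls 2 and 5 were the highest, and the other 3 controls were at or just above most of the rpFSH pigs. The log2 fold change of DRC3 was -0.93 ± 0.38 (SE, edgeR P = 0.0328, exact permutation p = 0.0397), short of the fold limit, and without controls 2 and 5 it was -0.22 ± 0.27 (SE, edgeR P = 0.440).

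The central pair and its projections form the hub that the spokes touch. With 8 of 10 genes called lower it held the most calls of any role, and the uncalled genes were CFAP74 and SPEF1. Without controls 2 and 5 the median of the 10 was -0.18 and 0 were called. SPAG17 (MSTRG.23880, chr4:102629400-102826226, plus strand), a large protein of a central pair projection, had the smallest edgeR P of the role. SPAG17 was at 0.0886, 0.926, 0.0584, 0.0701 and 2.68 FPKM in controls 1 to 5, and at 0.00263, 0.0732, 0.0396, 0.00478 and 0.0267 FPKM in rpFSH pigs 1 to 5. Far above the rest were controls 2 and 5, and of the other 3 controls only control 1 lay above every rpFSH pig. For SPAG17 the log2 fold change was -4.54 ± 1.33 (SE, edgeR P = 0.00599, exact permutation p = 0.0238), and without controls 2 and 5 it was -1.17 ± 0.87 (SE, edgeR P = 0.213).

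CFAP46 (MSTRG.12649, chr14:140916092-141002721, minus strand) also belongs to a central pair projection and had the highest level of the role. It was at 1.21, 5.31, 1.05, 1.41 and 8.62 FPKM in controls 1 to 5, and at 1.20, 1.45, 1.44, 0.854 and 0.856 FPKM in rpFSH pigs 1 to 5. The other 3 controls fell inside the range of the rpFSH treatment group. By log2 fold change CFAP46 was at -1.51 ± 0.58 (SE, edgeR P = 0.0258, exact permutation p = 0.190), and without controls 2 and 5 it was 0.01 ± 0.25 (SE, edgeR P = 0.971).

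SPEF2 (MSTRG.14406, chr16:21088359-21264591, plus strand), a central pair protein needed for sperm tail formation, was the 1 central pair gene whose groups did not overlap. SPEF2 was at 0.867, 3.58, 0.944, 0.921 and 4.03 FPKM in controls 1 to 5, and at 0.712, 0.811, 0.686, 0.658 and 0.609 FPKM in rpFSH pigs 1 to 5. Every control was above every rpFSH pig, by a wide margin in controls 2 and 5 and a narrow one in the other 3. The means were 2.07 ± 1.59 and 0.695 ± 0.0753 FPKM (SD, n = 5 each). SPEF2 had a log2 fold change of -1.49 ± 0.47 (SE, edgeR P = 0.00912, exact permutation p = 0.00794), and without controls 2 and 5 it was -0.31 ± 0.17 (SE, edgeR P = 0.0975, exact permutation p = 0.0179).

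Dynein arms are the motors of the axoneme, and several CFAP proteins tether them or tune the inner arms. Of 5 genes, 3 were called lower, namely DNAI2, CFAP57 (log2 fold change -5.18) and CFAP73 (-2.61). The latter were at -1.06 and -0.72 without controls 2 and 5 and not called. DNAI2 (MSTRG.5799, chr12:6809473-6832766, minus strand) is an intermediate chain of the outer arm. DNAI2 was at 0.162, 2.70, 0.207, 0.0940 and 4.93 FPKM in controls 1 to 5, and at 0.0199, 0.220, 0.0753, 0.0848 and 0.113 FPKM in rpFSH pigs 1 to 5. The other 3 controls lay among the rpFSH pigs. For DNAI2 the log2 fold change was -3.86 ± 1.17 (SE, edgeR P = 0.00744, exact permutation p = 0.0794), and without controls 2 and 5 it was -0.50 ± 0.65 (SE, edgeR P = 0.459).

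CFAP100 (MSTRG.30970, chr7:53909425-53951749, plus strand), which acts with CFAP73 in the control of an inner arm, turned its direction with the pair of pigs. CFAP100 was at 0.130, 1.99, 0.182, 0.196 and 4.79 FPKM in controls 1 to 5, and at 0.433, 0.314, 0.223, 0.606 and 0.221 FPKM in rpFSH pigs 1 to 5. Every rpFSH pig was above the 3 other controls, which held for 1 tested axonemal gene and 1.72% of the tested loci, and every rpFSH pig was below controls 2 and 5. Its log2 fold change was -1.94 ± 0.96 (SE, edgeR P = 0.0696) with all pigs and 1.14 ± 0.41 (SE, edgeR P = 0.0225, exact permutation p = 0.0714) without controls 2 and 5. By edgeR the adjusted p of the latter was 0.694.

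Preassembly factors fold and join dynein subunits in the cytoplasm. Their 5 genes were present in every pig, and only DNAAF1 was called lower, while CFAP300 had a log2 fold change of -0.92 and P under 0.05. The median of the 5 was -0.29 with all pigs and -0.30 without controls 2 and 5. DNAAF1 (MSTRG.26420, chr6:4457291-4479828, minus strand) was at 0.744, 1.87, 0.782, 0.863 and 2.40 FPKM in controls 1 to 5, and at 0.423, 0.538, 0.526, 0.495 and 0.684 FPKM in rpFSH pigs 1 to 5. All 5 controls were above all 5 rpFSH pigs. The means were 1.33 ± 0.756 and 0.533 ± 0.0953 FPKM (SD, n = 5 each). DNAAF1 had a log2 fold change of -1.23 ± 0.38 (SE, edgeR P = 0.00795, exact permutation p = 0.00794), and without controls 2 and 5 it was -0.50 ± 0.26 (SE, edgeR P = 0.0869, exact permutation p = 0.0179).

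DNAAF5 (MSTRG.19982, chr3:424459-461816, plus strand) had the highest level among these factors and nearly the same mean in both groups. It was at 1.83, 1.96, 1.80, 2.43 and 2.79 FPKM in controls 1 to 5 and at 2.66, 1.83, 1.78, 2.06 and 1.94 FPKM in rpFSH pigs 1 to 5. The groups overlapped throughout, and the log2 fold change was -0.01 ± 0.18 (SE, edgeR P = 0.977, exact permutation p = 0.722). DNAAF2, in a locus fused with POLE2 and therefore uncertain, was at 1.36, 1.08, 1.56, 1.68 and 1.39 FPKM in controls 1 to 5 and at 1.06 to 1.27 FPKM in the rpFSH pigs, so that control 2 was not among its highest pigs. DNAAF2 and the tektin gene TEKT5 are named here because their values were seen to run against the common order.

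Tektins are filament proteins along the wall of the doublets. All 4 tested tektin genes were called lower, against 2.58% of all tested loci. Their median in the 8 pigs other than controls 2 and 5 was under 0.1 FPKM, so they passed the filter through controls 2 and 5. TEKT5, at a mean of 0.0714 FPKM, was not tested, so the filter itself shaped this count. TEKT1 (MSTRG.6910, chr12:50524200-50549758, minus strand) was at 0.0701, 1.99, 0.0456, 0.166 and 3.50 FPKM in controls 1 to 5, and at 0.0372, 0.0900, 0.0682, 0 and 0.0984 FPKM in rpFSH pigs 1 to 5. The other 3 controls overlapped the rpFSH pigs. For TEKT1 the log2 fold change was -4.15 ± 1.36 (SE, edgeR P = 0.0114, exact permutation p = 0.0873), and without controls 2 and 5 it was -0.57 ± 0.97 (SE, edgeR P = 0.566).

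TEKT2 (MSTRG.28665, chr6:92233586-92237900, plus strand) had 2.46 FPKM in control 2, 3.53 FPKM in control 5 and 0.0792 FPKM in control 4, and no count in controls 1 and 3. In the rpFSH treatment group it had 0.135 and 0.0975 FPKM in pigs 2 and 3 and no count in the other 3 pigs. Apart from controls 2 and 5 the gene was thus at the edge of detection. The log2 fold change of TEKT2 was -4.50 ± 1.97 (SE, edgeR P = 0.0428, exact permutation p = 0.365), and 0.84 ± 1.83 (SE, edgeR P = 0.646) without controls 2 and 5. TEKT4 had 0.564 FPKM in control 2 and 1.28 FPKM in control 5 and no count in any other pig. With 3 counts per library as the limit that a count of 0 allows, mean TEKT4 was at least 14.9-fold lower under rpFSH. Controls 1, 3 and 4 had no count either, and the exact permutation p of TEKT4 was 0.444. With the bound in place of its fitted value the median log2 fold change of the 47 genes was again -1.94. TEKT5, known from the sperm tail, had the reverse order among the controls, with 0.0856, 0, 0.198, 0.305 and 0.0378 FPKM in controls 1 to 5 and at most 0.0683 FPKM in the rpFSH pigs. Its 3 controls other than 2 and 5 were above all rpFSH pigs, at a level under the filter.

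Doublet inner proteins line the lumen of the doublet microtubules. Of 7 genes, 4 were called lower, namely CFAP161, CFAP45 (log2 fold change -3.66), CFAP52 (-2.38) and CFAP77 (-3.41), and 6 had P under 0.05. None was called without controls 2 and 5, and the log2 fold change turned to 0.54 in CFAP45 and was -0.88 in CFAP52 and -0.20 in CFAP77. CFAP161 was at 0.0523, 2.08, 0.129, 0.103 and 3.61 FPKM in controls 1 to 5, and at 0, 0.0380, 0.0454, 0 and 0 FPKM in rpFSH pigs 1 to 5. All 5 controls were above all 5 rpFSH pigs, with 3 of the 5 rpFSH pigs at 0 counts. Control 1, the lowest control, had 8 counts, and rpFSH pigs 2 and 3 had 7 counts each. The separation of the groups thus rested on a narrow gap at low counts. The means were 1.19 ± 1.60 and 0.0167 ± 0.0229 FPKM (SD, n = 5 each). CFAP161 had a log2 fold change of -5.86 ± 1.60 (SE, edgeR P = 0.00384, exact permutation p = 0.00794), the smallest edgeR P among the 47 genes. Without controls 2 and 5 it was -2.28 ± 1.22 (SE, edgeR P = 0.0904, exact permutation p = 0.0179).

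CFAP20 (MSTRG.26756, chr6:19948918-19969347, minus strand), a protein of the inner junction that is also found at centrioles, had a small difference in which the groups did not overlap. CFAP20 was at 4.85, 5.36, 4.02, 4.12 and 4.59 FPKM in controls 1 to 5, and at 3.86, 3.57, 2.98, 3.16 and 3.47 FPKM in rpFSH pigs 1 to 5. Here controls 2 and 5 were not set apart from the other controls. The means were 4.59 ± 0.549 and 3.41 ± 0.345 FPKM (SD, n = 5 each). Its log2 fold change was -0.36 ± 0.13 (SE, edgeR P = 0.0230, exact permutation p = 0.00794), and without controls 2 and 5 it was -0.27 ± 0.15 (SE, edgeR P = 0.105, exact permutation p = 0.0179).

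SPAG8, an inner protein named here after its values were seen, had a larger difference without controls 2 and 5 than with them. It was at 3.38, 2.47, 3.65, 3.40 and 2.97 FPKM in controls 1 to 5, and at 1.65, 2.51, 1.16, 1.94 and 2.42 FPKM in rpFSH pigs 1 to 5. Controls 2 and 5 were the lowest controls, and control 2 fell just below the highest rpFSH pig. The log2 fold change of SPAG8 was -0.64 ± 0.22 (SE, edgeR P = 0.0151, exact permutation p = 0.0159), and without controls 2 and 5 it was -0.77 ± 0.24 (SE, edgeR P = 0.0120, exact permutation p = 0.0357). By edgeR with Benjamini-Hochberg adjustment the adjusted p was 0.992 and 0.690.

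**Figure D3:**
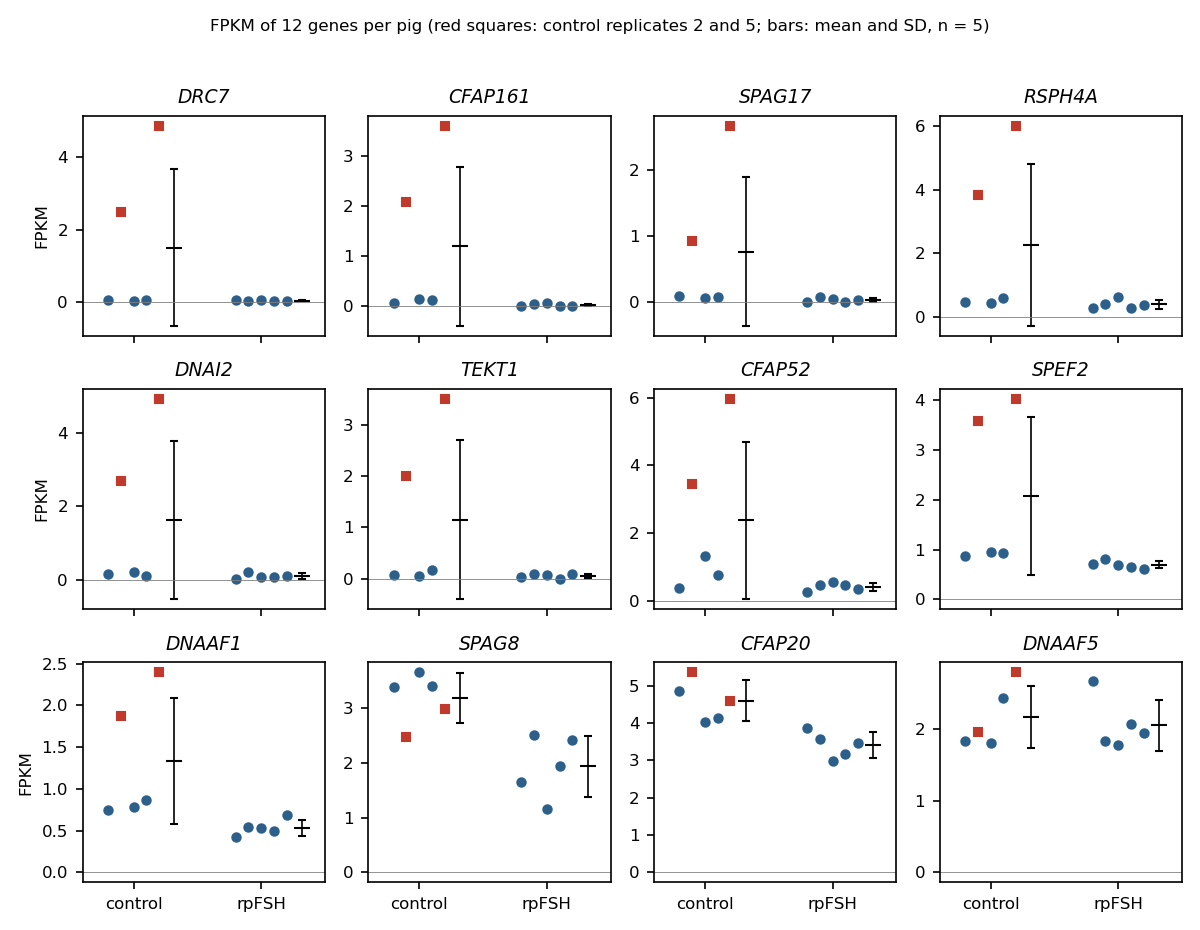
FPKM of 12 axonemal genes in each pig (points), by group, with the mean and SD of the 5 pigs of each group (bars). Red squares are controls 2 and 5, which set the control mean in 9 of the panels (DRC7 to DNAAF1), whereas in SPAG8, CFAP20 and DNAAF5 they lie among the other controls or near them.

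Of the other 6 CFAP genes, 2 were called lower, CFAP70 and CFAP99 (log2 fold change -1.69, and -0.36 without controls 2 and 5). CFAP70 (MSTRG.11636, chr14:76075009-76198778, minus strand), linked to the outer dynein arm, was at 1.45, 3.91, 1.27, 2.10 and 4.24 FPKM in controls 1 to 5, and at 0.643, 1.08, 1.49, 1.16 and 0.779 FPKM in rpFSH pigs 1 to 5. Control 4 also lay above every rpFSH pig, and controls 1 and 3 did not. For CFAP70 the log2 fold change was -1.24 ± 0.39 (SE, edgeR P = 0.00867, exact permutation p = 0.0238), and without controls 2 and 5 it was -0.55 ± 0.31 (SE, edgeR P = 0.110).

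CFAP97 (MSTRG.13075, chr15:46207206-46257406, minus strand) had the highest mean of this group. It was at 4.96, 5.36, 4.52, 4.27 and 5.18 FPKM in controls 1 to 5 and at 4.81, 4.14, 4.50, 4.61 and 4.99 FPKM in rpFSH pigs 1 to 5. The groups overlapped, with means of 4.86 ± 0.454 and 4.61 ± 0.322 FPKM (SD, n = 5 each). In CFAP97 the log2 fold change was -0.00 ± 0.11 (SE, edgeR P = 0.981, exact permutation p = 0.349).

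**Figure D4:**
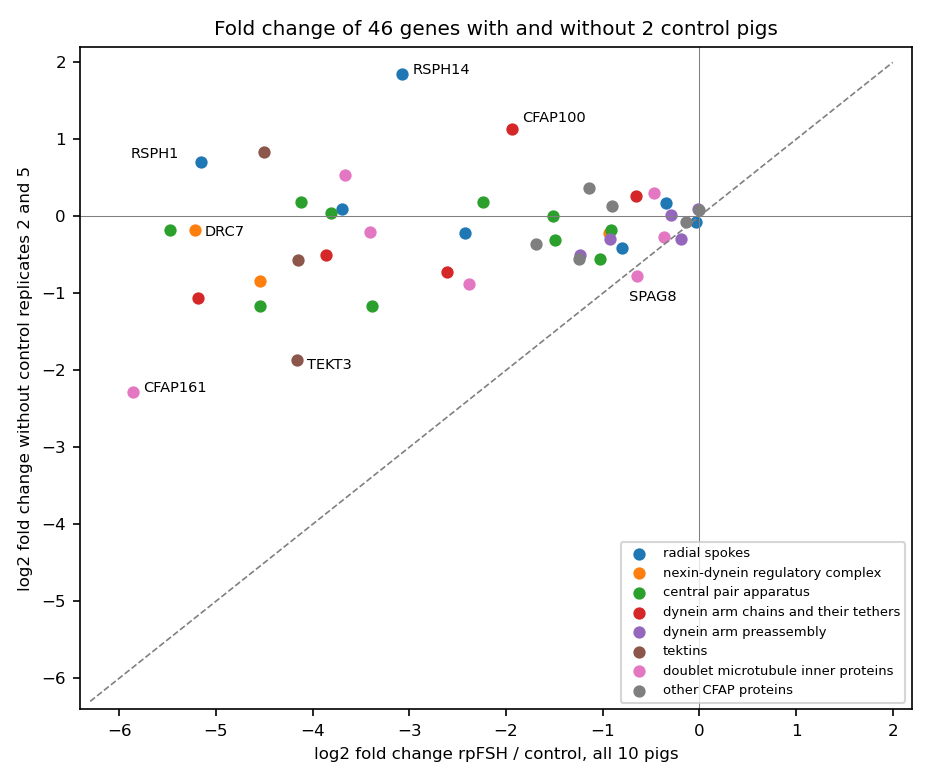
Log2 fold change (rpFSH over control) of the 46 axonemal genes tested both ways, with all 10 pigs on the x axis and without controls 2 and 5 on the y axis, coloured by role. On the dashed line both would be equal. The points spread from -5.86 to about 0 on the x axis and lie mostly near 0 on the y axis, with a median of -0.19.

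The genes differed in how much of them the other 8 pigs held. In 18 genes the median of these 8 pigs was under 0.1 FPKM, in 17 it was 0.1 to 1 FPKM, and in 13 it was 1 FPKM or more. The first class held 16 of the 27 lower calls, the second 9 and the third 2, CFAP46 and CFAP70. The gap between the mean of controls 2 and 5 and the mean of the other 8 pigs was above 0 in 45 of the 48 genes. Its median was 2.66 FPKM in the lowest class (range -0.0656 to 4.41), 1.77 FPKM in the middle class (0.393 to 4.49) and 1.22 FPKM in the highest class (-0.116 to 5.78). In absolute terms the gaps of the classes overlapped broadly, while the calls were most frequent among genes with little or no level in the other 8 pigs. These classes were drawn after the values were seen, so no test is given.

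Other genes of the motile cilium were taken from lists of dynein heavy chains and of further ciliary parts that hold none of the 48. Genes of these lists can belong to the same families as the 48 under other symbols, so they are not a set apart. Of 9 tested dynein heavy chain genes 7 were called lower, and of 47 other motile cilium genes 23 were, with 0 called higher. Together 30 of 56 were called lower. Of all tested loci 2.58% were called lower and 0.508% higher. Controls 2 and 5 were the 2 highest pigs in 8.97% of all tested loci. They were so in 6 of the 9 tested heavy chain genes and in 39 of the 47 other tested genes. They were not in DNAH17, with 0.151 and 0.139 FPKM in controls 2 and 5 and 0.113 to 0.290 FPKM in the other 8 pigs, nor in EFCAB2, with 1.67 and 1.99 FPKM against 1.99 to 4.26 FPKM. Summed FPKM of the heavy chains was 8.01, 35.1, 8.50, 13.7 and 58.0 in controls 1 to 5 and 4.63 to 8.55 in the rpFSH pigs. DNAH5, an outer arm heavy chain, was at 0.716, 7.32, 0.297, 1.19 and 12.6 FPKM in controls 1 to 5 and at 0.0868 to 0.649 FPKM in the rpFSH pigs (log2 fold change -3.53 ± 1.01, SE, edgeR P = 0.00544, exact permutation p = 0.0476). DNAH5 had a log2 fold change of -0.94 without controls 2 and 5, which edgeR did not call. Without these pigs 1 of the 56 genes was called lower, DYNLRB2, a light chain shared with the transport dynein. DYNLRB2 was at 1.47, 10.9, 0.815, 1.25 and 6.44 FPKM in controls 1 to 5 and at 0.236 to 1.02 FPKM in the rpFSH pigs, with a log2 fold change of -3.06 ± 0.80 (SE, edgeR P = 0.00295, exact permutation p = 0.0159) and of -1.26 (edgeR P = 0.0435) without controls 2 and 5.

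Most regulators of multiciliated cells, 8 of 11 loci, were also highest in controls 2 and 5, against 8.97% of all tested loci. Of 11 tested regulators 5 were called lower, against the 2.58% of all tested loci, and their summed FPKM was 22.8 in control 2 and 42.7 in control 5, against at most 12.6 in the other 3 controls and 8.44 to 12.5 in the rpFSH pigs. Without controls 2 and 5, 0 of 10 regulators were called lower and 1 was called higher, TP73 (log2 fold change 1.44), and the median was -0.04. Of all tested loci 0.772% were then called lower and 2.02% higher. FOXJ1 was at 0.0618, 5.82, 0.0421, 0.123 and 14.1 FPKM in controls 1 to 5, and at 0, 0.0488, 0.212, 0.0262 and 0 FPKM in rpFSH pigs 1 to 5. Its log2 fold change was -6.01 ± 1.94 (SE, edgeR P = 0.0107, exact permutation p = 0.175) and -0.29 (edgeR P = 0.834) without controls 2 and 5. MCIDAS, which starts the multiciliated fate, had counts in controls 2 and 5 alone, with 0.493 and 0.889 FPKM. MYB, another regulator of this fate, had a log2 fold change of -3.04 ± 0.87 (SE, edgeR P = 0.00525, exact permutation p = 0.0476) and of -0.96 without controls 2 and 5, which edgeR did not call. E2F4, which also serves the cell cycle in other cells, was at 2.43 to 6.25 FPKM in the controls and had a log2 fold change of 0.27 ± 0.27 (SE, edgeR P = 0.351, exact permutation p = 0.421).

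Markers of secretory epithelium of the oviduct type were high in the same libraries. Of 16 listed markers 11 were found among the protein-coding loci, and all 11 were tested. Of these 10 were called lower, against 2.58% of all tested loci. In 10 of the 11 controls 2 and 5 were the 2 highest pigs and both over 2 times the next, MAL2 being the exception. Of all tested loci 8.97% had this order and 2.68% this gap. Summed FPKM of the markers was 19.2, 109, 10.3, 10.3 and 170 in controls 1 to 5 and 7.70 to 9.84 in the rpFSH pigs. None of the markers was at or under 3 counts in every pig. The locus named WDR77 and OVGP1, which joins the oviduct glycoprotein gene with a neighbour and is therefore uncertain, was at 2.50, 20.6, 2.11, 2.84 and 63.6 FPKM in controls 1 to 5 and at 1.93 to 3.12 FPKM in the rpFSH pigs. MAL2, a membrane traffic protein of epithelia, was the 1 marker still called lower without controls 2 and 5 (log2 fold change -1.69), against 0.772% of tested loci. With all pigs it was -1.89 ± 0.45 (SE, edgeR P = 0.00167, exact permutation p = 0.00794). MAL2 was at 8.08 ± 4.22 FPKM in the control group, lowest in control 4 with 3.93 FPKM, and at 2.08 ± 1.04 FPKM after rpFSH, with 3.24 FPKM in the highest pig (SD, n = 5 each). The part of these epithelial genes in the axonemal result was not tested.

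Genes of the primary cilium and of intraflagellar transport, which non-motile cilia also need, stayed near the shares of all tested loci. Of 38 tested loci 0 were called by edgeR in either direction and 1, ARL6, had P under 0.05. Of all tested loci 2.58% were called lower, 0.508% were called higher and 4.76% had P under 0.05. The summed FPKM of the 38 loci was 132 to 163 in the controls and 121 to 139 in the rpFSH pigs. Controls 2 and 5 were the 2 highest pigs in 4 of the 38, against 8.97% of all tested loci. IFT46, the transport gene with the highest level, was at 9.18 ± 1.40 FPKM (SD, n = 5) in the controls and at 7.51 ± 0.990 FPKM (SD, n = 5) under rpFSH, with a log2 fold change of -0.21 ± 0.15 (SE, edgeR P = 0.189, exact permutation p = 0.0556). ARL6, a small GTPase of ciliary membrane traffic, had a log2 fold change of -0.37 ± 0.16 (SE, edgeR P = 0.0372, exact permutation p = 0.00794).

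The tissue label ovary was checked against markers of oocytes, granulosa and luteal cells, stroma and leukocytes, and each of these lists was detected in every pig. None of 8 oocyte markers or 7 markers of granulosa and luteal cells was called by edgeR or had P under 0.05. The same held for 5 markers of the surface mesothelium and 8 of leukocytes. Among all tested loci 2.58% were called lower, 0.508% were called higher and 4.76% had P under 0.05. In lists this short 0 calls lie near these shares. Of 12 markers of stroma and vessels 1, LUM, was called lower (log2 fold change -1.54 ± 0.53, SE, exact permutation p = 0.0159). LUM was at 29.0 FPKM in control 5 against 3.56 to 8.09 FPKM in the other controls, and its log2 fold change without controls 2 and 5 was -0.67 and not called. Without these pigs STAR (4.91), CD14 (1.10) and TAGLN (1.06), named after their values were seen, were called higher, and 0 markers of these lists were called lower. Among all tested loci 2.02% were then called higher and 0.772% lower. The loci of CD68, CD79A, CD4, AMH, INHBA and COL3A1 are joined with another gene and are uncertain. Summed oocyte markers were lowest in controls 2 and 5, with 5.31 and 7.40 FPKM, against 15.4 to 22.9 FPKM in the other controls and 11.4 to 20.3 FPKM in the rpFSH pigs. GDF9, the oocyte growth factor, was at 2.36 to 4.49 FPKM in the controls and 3.06 to 4.92 FPKM in the rpFSH pigs. Granulosa and luteal markers varied most between pigs, from 20.9 to 2295 summed FPKM in the controls and from 20.1 to 1314 in the rpFSH pigs. The high sum of control 2 came from the steroid genes CYP11A1 and STAR, with 1758 and 532 FPKM, whereas in the remaining 5 of the 7 loci, INHA, CYP19A1, FSHR and those of INHBA and AMH, control 2 was the lowest of all pigs. Control 5 was among the lowest in the sum. The surface mesothelium markers summed to 9.21 FPKM in control 2 and 20.3 FPKM in control 5, and to 6.65 to 14.4 FPKM in the rpFSH pigs. The part of these differences in tissue makeup in the axonemal result was not tested.

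**Figure D5:**
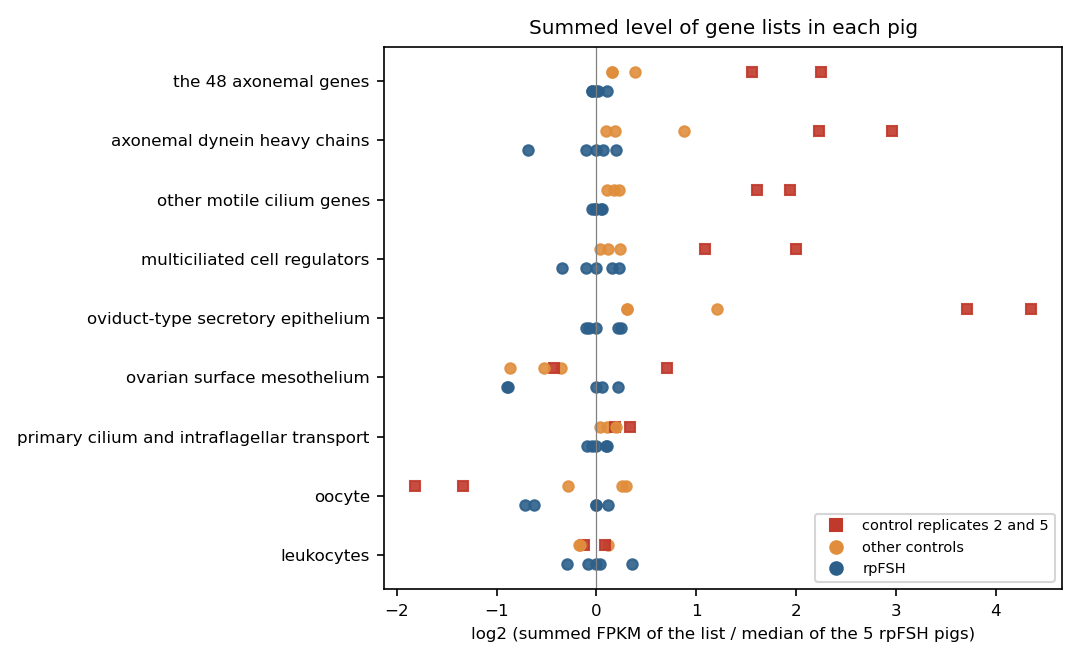
Summed FPKM of gene lists in each pig, as the log2 ratio to the median of the 5 rpFSH pigs. Controls 2 and 5 (red squares) lie to the right of all other pigs for the 48 axonemal genes, the dynein heavy chains, the other motile cilium genes, the multiciliated cell regulators and the oviduct-type epithelium, to the left for the oocyte markers, and near the others for the primary cilium list.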

How the data were processed

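RNA-seq values of ovaries from 10 gilts were used, with 1 library per pig. According to the methods and the submitters' processing notes, the authors mapped reads with HISAT2 2.0 and Bowtie (version 0.12.2 in the notes) to Sscrofa11.1, assembled them with StringTie 1.3.0 and computed FPKM. Whole-number counts stand beside FPKM in the deposited table, and how they were derived is not given in the sources used here. The table writes 0.0001 as its lowest FPKM. All 36 such values of the 48 genes, out of 480, had a count of 0 and are given as 0. Whether counting used strand is not given in the sources used here, so reads of overlapping genes may be shared.

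Deposited counts were tested at the 15170 protein-coding loci whose mean FPKM reached 0.1, with edgeR 4.0.16 (TMM, quasi-likelihood) in R 4.3.3, in place of Ballgown, which the authors used on FPKM. Adjustment over all these loci was by Benjamini-Hochberg. Calls used the study's limits, an unadjusted P under 0.05 and a log2 fold change above 1 or below -1. In the limma setting the fold limit was on the log2 ratio of mean FPKM, not on the fitted coefficient. The SE of edgeR was the log2 coefficient divided by the square root of F. A two-sided exact permutation test was run on mean log2(FPKM + 1), a pseudocount of 1. Gene by gene p from it were not adjusted. Alternatives were DESeq2 1.42.0, limma 3.58.1 on log2(FPKM + 1), RLE and upper-quartile factors, other filters, a pseudocount of 0.1, a block for the replicate number, and the omission of single pigs or of controls 2 and 5 together. Tables and figures were made with Python 3.11.15, numpy 2.4.6, pandas 2.3.3 and scipy 1.17.1, and the fits were checked on simulated data. Total counts were 64873797 to 75114003, and a floor of 3 counts was 0.0399 to 0.0462 CPM. Such limits cover counting error only.

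Genes named with all their values were DRC7 and CFAP161, in each role the tested gene with the smallest P and that with the highest mean FPKM, genes whose groups did not overlap, and the 2 most positive log2 fold changes. The same rule without the last 2 parts, and FOXJ1, was used for the other lists, where not every gene so chosen is printed. MCIDAS, TP73, DNAH17 and EFCAB2 were named outside this rule, after their values were seen. The genes, lists, tests and the setting without controls 2 and 5 were chosen with earlier results of these data known. Labels give the replicate numbers, and different animals share a number. A planned search of promoter motifs was not run. The qRT-PCR values were not analysed here.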

Additional observations from a re-analysis of the deposited data

How the results depend on the processing

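The 27 lower calls stayed between 22 and 32 with DESeq2, with RLE or upper-quartile factors, without a filter and without single pigs, except for 15 without control 5 (range without single pigs 15 to 32). They were 7 with limma on log2(FPKM + 1), 5 with a mean FPKM of at least 1, which left 19 genes, 12 with the replicate block, and 0 without both controls 2 and 5, where 1 gene was called higher and the median was -0.19. DESeq2 gave 9 genes past the adjusted threshold in place of 0. The 30 lower calls among other motile cilium genes became 7 with limma, 12 with a mean FPKM of at least 1, 12 with the replicate block and 1 without controls 2 and 5, and were 17 to 33 without single pigs. The 13 genes with an exact p under 0.05 became 7 at a mean FPKM of at least 1, 6 without controls 2 and 5 and 3 to 22 without single pigs. With the replicate block they became 0, since sign changes within 5 pairs cannot give a p under 0.0625. Without controls 2 and 5, of the genes named with all their values, CFAP46 (0.01), TEKT2 (0.84) and CFAP100 (1.14) turned to a positive log2 fold change. CFAP97 (0.08 without these pigs, 0.00 without a filter, and -0.06 to 0.04 without single pigs), DNAAF5 (0.10, 0.00 with the replicate block, and -0.10 to 0.10) and the RSPH6A locus (-0.11 to 0.04 without single pigs) were near 0 on either side. Same-numbered pigs of the groups had correlations of -0.27 to -0.0272 in their deviations from the group means, and 0 of 10 correlated best with its own number. These are different animals, so the block shares only a number. The causes of these changes other than fewer genes, fewer pigs and fewer assignments were not tested. For genes at or under 3 counts in most of the other 8 pigs, differences among these pigs were not detectable at this depth.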

Other observations

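A further 38 loci of the table carried the name of an axonemal gene but no transcript type, so they were not among the 48. They bore 16 names, 11 of them named CFAP65, and 37 lay inside the span of the named gene and 1 outside it. Their FPKM summed to 27.4, 45.1, 28.1, 37.2 and 77.1 in controls 1 to 5 and to 23.7 to 27.9 in the rpFSH pigs. Controls 2 and 5 were the 2 highest pigs in 18 of the 38, and both were over 2 times the next pig in 16. Among tested protein-coding loci the shares were 8.97% and 2.68%, and no share was computed for other loci without a transcript type. None of the 11 loci named CFAP65 was among the 18. The CFAP65 locus (chr15:120426097-121063689) also encloses the separate locus named STK36 and TTLL4 (chr15:120719432-120794468). The extent and the values of the CFAP65 locus are therefore uncertain. Reads may be shared with the named genes, so the loci inside them are not separate evidence. One of the 38 loci lay within RSPH1 on the opposite strand and was at 1.68 FPKM in control 2 and 7.49 FPKM in control 5, and at 0.150 FPKM or less in the other 8 pigs, so that the high value of control 5 seen in RSPH1 itself was also seen there.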
